A study of Mus musculus with 15 samples.

Results

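Sterol and fatty acid synthesis were followed in Tsc2-deficient mouse kidney tumors through 33 genes of the 24891 in the expression table. The genes were taken by symbol from a pathway list that was drawn up with earlier results of these data known. They comprise 18 genes of sterol synthesis, 5 of sterol sensing and transport, 2 cholesterol efflux pumps and 8 genes of fatty acid synthesis, and all 33 were present and expressed highly enough to be tested in every comparison. The tumors grew from 105K cells, a Tsc2-deficient line that began in a kidney tumor of a Tsc2+/- mouse, which carried by lentivirus either the non-targeting shRNA sh-NC or 1 of 2 shRNAs against B7-H3, named sh-B7-H3 (1) and (2). B7-H3, the product of CD276, is an immune checkpoint protein on the tumor cell surface. The transduced lines were selected pools and not single clones. Cells were injected with matrigel under the skin of the flank of 6-week-old male wild-type C57BL/6J mice, so every group shared the Tsc2 loss, the vector selection and an intact host immune system. RNA was sequenced from tumors as a whole (bulk), for sh-NC and shRNA (1), and from sorted tumor cells, which remained after magnetic depletion of non-tumor cells, for sh-NC and both shRNAs against B7-H3. Each of the 5 groups held 3 libraries. The study's methods call them biological samples, while the labels do not say whether they came from separate animals, and the p-values measure the spread between these libraries.

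Cells make cholesterol from acetyl-CoA through the mevalonate pathway, squalene and lanosterol. When membranes lack sterol, SCAP escorts the SREBP transcription factors out of the endoplasmic reticulum, where INSIG proteins otherwise hold them back, and SREBP2 (SREBF2) turns on sterol synthesis while SREBP1 (SREBF1) mainly turns on fatty acid synthesis and desaturation. When sterol is in excess, oxysterols act through liver X receptors to raise the efflux pumps ABCA1 and ABCG1 and also SREBF1. The mTORC1 kinase, which is overactive when Tsc2 is lost, is known to promote SREBP activity.

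Values are FPKM, fragments per gene length and sequencing depth, divided by a factor per library and hereafter called scaled FPKM. Differences are log2 fold changes of scaled FPKM plus 1 with their standard error, tested with limma, and a gene was called at a Benjamini-Hochberg adjusted p under 0.05 over all genes tested. Read totals are not in the table, and the spacing of the lowest values put the depth of the libraries between 0.468 and 1 of the deepest. In tumor tissue and in sorted cells alike, fewer cells of a type and less RNA per cell cannot be told apart. CD276 itself was at 34.0, 20.0 and 17.3 scaled FPKM in sorted sh-NC cells, at 7.29, 14.0 and 11.5 with sh-B7-H3 (1) and at 23.3, 25.4 and 25.7 with sh-B7-H3 (2), and at 20.8, 23.2 and 23.5 against 22.3, 17.8 and 24.4 in the corresponding bulk tumors. It was lower than sh-NC in every sorted library of sh-B7-H3 (1), without passing the test (log2 fold change -1.04 ± 0.29 (SE), adjusted p = 0.0547), and its RNA did not follow the label in the sorted libraries labelled sh-B7-H3 (2) or in the bulk libraries labelled sh-B7-H3 (1). The names sh-B7-H3 (1) and (2) are therefore used as labels, and the libraries that carry them are called shRNA libraries. The paper reports stable knockdown of B7-H3 in the injected cell line and suppressed tumor growth with each of these shRNAs. The values here are RNA, and the level of B7-H3 protein was not tested. The sum of 8 renal epithelial markers lay between 1219 and 2217 scaled FPKM over the 15 libraries. In sorted cells it was 1364 to 1611 with sh-NC, 1826 to 2217 with sh-B7-H3 (1) and 1905 to 2162 with sh-B7-H3 (2), so that all 6 shRNA libraries lay above the controls, and the part of this shift in the sorted comparisons was not tested. Sorted sh-B7-H3 (2) replicate 1 stood apart from the other sorted libraries by host cell RNA, with 10 leukocyte markers summing to 267 scaled FPKM, where the remaining 8 held 23.8 to 32.6. Fibroblast markers were higher in all 3 sorted libraries labelled sh-B7-H3 (2), with sums of 120.5 to 155 against 55.8 to 84.6 with sh-B7-H3 (1) and 36.0 to 81.8 with sh-NC, and their part in the results was not tested.

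Sterol synthesis genes as a group lay lower than most genes in sorted cells with shRNAs against B7-H3 by their median, and a minority of them passed the test. Against sorted sh-NC, 5 of 18 were called lower and 0 higher with both shRNAs as 1 group of 6 libraries, where 20.5% of the 11424 genes tested were called, 7.92% lower and 12.6% higher. The median log2 fold change of the 18 was -0.20, with 14 of them negative, and that of all genes tested was 0.01. Without the division by library factors the sterol median was -0.00 with both shRNAs, 0.06 with sh-B7-H3 (2) and -0.12 with sh-B7-H3 (1), against 0.20, 0.21 and 0.17 for all genes. The 5 were HMGCS1, IDI1, FDFT1, LSS and NSDHL, which act from the entry of the mevalonate pathway to the late trimming of the sterol ring. Over all 33 genes, 10 were called lower and 1 higher. The 6 shRNA libraries entered this fit as separate libraries, with no term for the shRNA or the replicate number. Same-numbered libraries of the shRNAs deviated together, however, so its p-values treat them as more independent than they were. With the replicate number as a block, which also paired the sh-NC libraries, 10 were again called lower and 1 higher. Calls over all genes in that fit are not given here, and the alternatives that kept every library gave 748 to 2879 in place of 2344. Undivided FPKM raised the median of all genes by 0.19, and 3 of the 33 genes were called higher (ABCG1, FDPS and SREBF1) and 1 lower (FADS2), and over all genes the calls were 1798 higher and 284 lower in place of 1439 and 905.

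HMGCS1, which makes the substrate of the rate-limiting step of the pathway, was at 58.8, 52.2 and 55.8 scaled FPKM in the 3 sorted sh-NC libraries, at 32.2, 38.1 and 33.7 with sh-B7-H3 (1) and at 37.5, 42.9 and 38.0 with sh-B7-H3 (2). All 6 shRNA libraries lay below all 3 controls. Its log2 fold change was -0.67 ± 0.13 (SE), adjusted p = 0.0107, for sh-B7-H3 (1) and -0.48 ± 0.12 (SE), adjusted p = 0.0275, for sh-B7-H3 (2). IDI1, the isomerase that readies the isoprenoid building block for condensation, was at 37.2, 44.0 and 50.5 in sh-NC cells, 33.3, 30.3 and 30.9 with the first shRNA and 26.4, 28.4 and 26.5 with the second, again without overlap. It fell with sh-B7-H3 (2) (log2 fold change -0.67 ± 0.14 (SE), adjusted p = 0.0142) and was -0.46 ± 0.14 (SE), adjusted p = 0.0845, with sh-B7-H3 (1).

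LSS, the cyclase that closes squalene epoxide to lanosterol, was at 10.6, 8.82 and 8.20 scaled FPKM in sorted sh-NC cells, 4.58, 5.22 and 5.58 with sh-B7-H3 (1) and 5.30, 6.79 and 7.08 with sh-B7-H3 (2). No shRNA library reached the lowest control. The log2 fold change was -0.73 ± 0.14 (SE), adjusted p = 0.0105, for sh-B7-H3 (1) and -0.47 ± 0.15 (SE), adjusted p = 0.0742, for sh-B7-H3 (2). NSDHL, which removes carbons from the sterol ring after lanosterol, was at 36.1, 37.6 and 38.0 in the controls, 26.0, 25.5 and 26.4 with the first shRNA and 24.5, 30.0 and 29.6 with the second. It was called lower with sh-B7-H3 (1) (log2 fold change -0.50 ± 0.11 (SE), adjusted p = 0.0213) and stood at -0.40 ± 0.12 (SE), adjusted p = 0.0617, with sh-B7-H3 (2). FDFT1, squalene synthase, was at 32.1, 32.0 and 31.0, then 24.9, 24.2 and 24.3, then 25.3, 27.1 and 26.9 in the same order of groups. It passed the test with both shRNAs combined (-0.31 ± 0.08 (SE), adjusted p = 0.0219) and with neither alone. The call was lost with the replicate number as a block (adjusted p = 0.0524), where MVD was called in its place (-0.38 ± 0.09 (SE), adjusted p = 0.0210), and without sorted sh-NC replicate 2 (adjusted p = 0.0935). The exons of FDFT1 overlap those of Ctsb on the opposite strand, and whether counting used strand is not given in the sources used here.

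FDPS and HSD17B7 went the other way with sh-B7-H3 (2). FDPS, which builds farnesyl diphosphate for sterols and for protein prenylation, was at 215, 219 and 233 scaled FPKM in sorted sh-NC cells, 269, 253 and 261 with sh-B7-H3 (1) and 378, 325 and 359 with sh-B7-H3 (2), so that the 3 groups did not overlap. The rise passed the test for sh-B7-H3 (2) (log2 fold change 0.67 ± 0.14 (SE), adjusted p = 0.0159) and not for sh-B7-H3 (1) (0.23 ± 0.14 (SE), adjusted p = 0.376). FDPS shares exon sequence on the same strand with the annotated gene Gm43738, between which reads could be split. HSD17B7, a reductase of the later sterol steps, was at 8.57, 6.95 and 8.94 in the controls, at 8.497, 6.55 and 6.76 with the first shRNA, overlapping the controls, and at 16.7, 12.2 and 12.6 with the second, above every other library of the series. Its log2 fold change was 0.69 ± 0.16 (SE), adjusted p = 0.0217, for sh-B7-H3 (2) and -0.15 ± 0.15 (SE), adjusted p = 0.627, for sh-B7-H3 (1). Without sorted sh-B7-H3 (2) replicate 1, the library with host cell RNA, the calls of FDPS and HSD17B7 against sh-NC were lost while their log2 fold changes were 0.62 and 0.55, and the calls were also lost without replicate 2 or replicate 3 of that group.

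**Figure D1:**
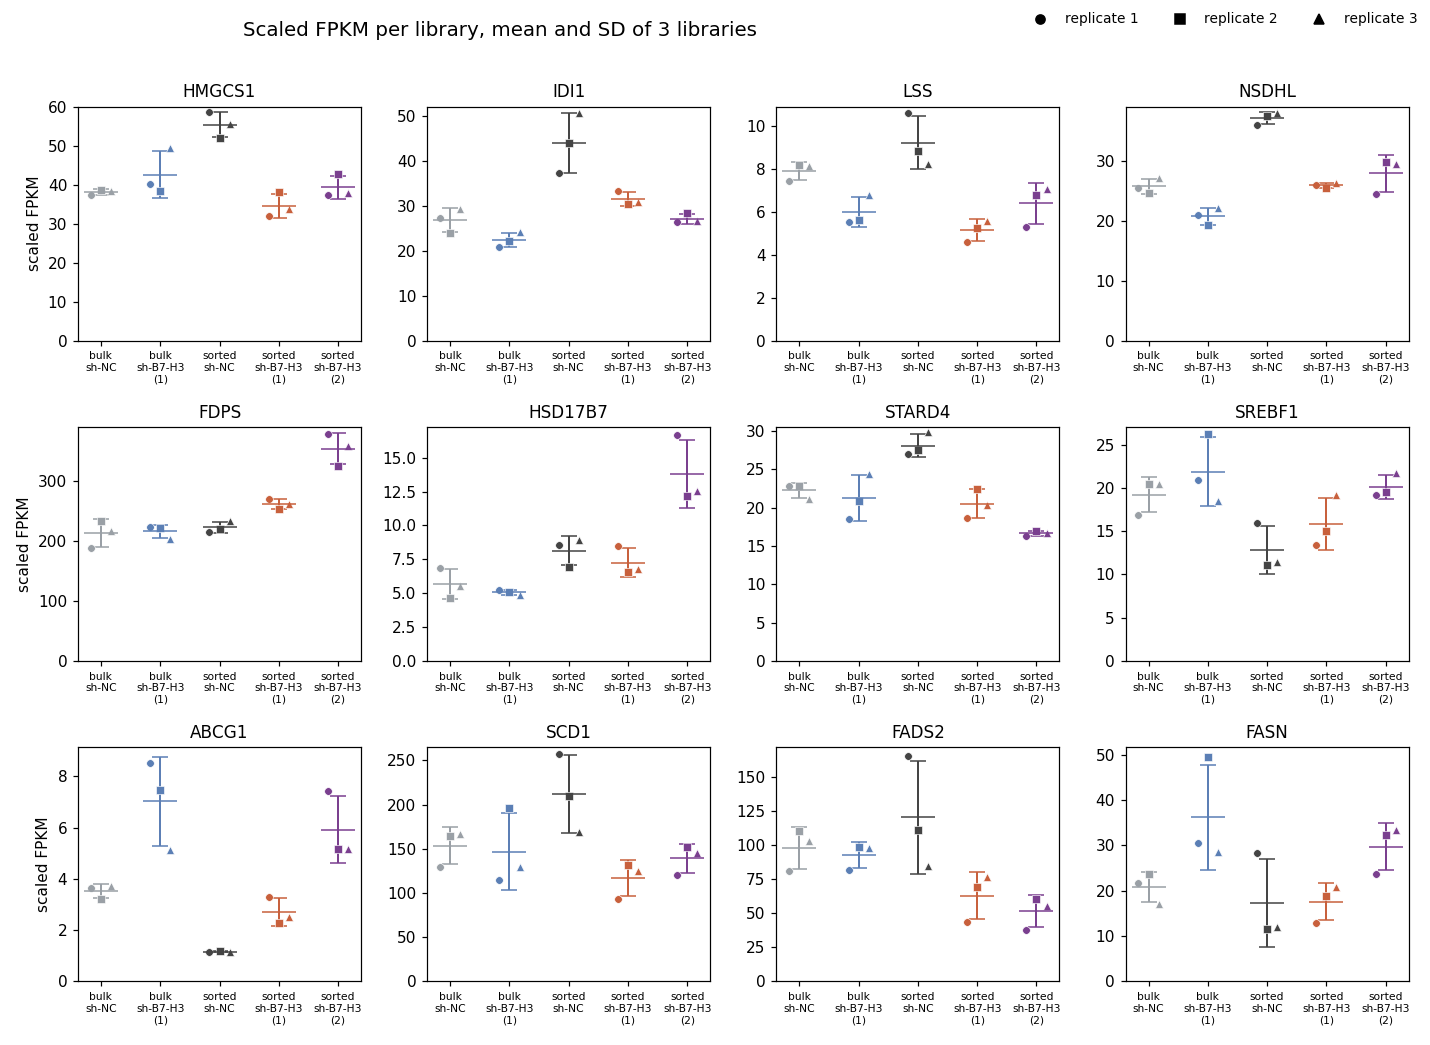
Scaled FPKM of 12 genes (vertical axes from 0) in the 5 groups (horizontal axis), with 1 symbol per library (circle, square and triangle for replicates 1, 2 and 3) and the mean ± SD of the 3 libraries. HMGCS1, IDI1, LSS, NSDHL and STARD4 of the sorted shRNA libraries lie below the 3 sorted sh-NC libraries, while ABCG1 lies above them, and HSD17B7 lies above them in the libraries labelled sh-B7-H3 (2).

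The other 11 sterol synthesis genes were called in none of the comparisons of an shRNA with sh-NC. They include MVK, PMVK and MVD, the kinases and the decarboxylase of the mevalonate pathway, SQLE, which adds the epoxide oxygen to squalene, CYP51, TM7SF2, MSMO1, EBP, SC5D and DHCR7, which modify the ring after lanosterol, and ACAT2, which joins acetyl-CoA units ahead of HMGCS1. MVD came closest with both shRNAs together, at -0.38 ± 0.12 (SE), adjusted p = 0.0505. MSMO1 was the most abundant of them, from 72.0 to 158 scaled FPKM over the 15 libraries with a median of 114, and TM7SF2 the least abundant by its median, from 2.57 to 7.47 with a median of 5.26. TM7SF2 shares exon sequence with Vps51 on the same strand, and CYP51 with Akap9 on the opposite strand.

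Members of each role, called or not, were searched for motifs in the sequence ahead of their start. RefSeq windows of GRCm38.p6, reaching from 250 bases before to 50 after each gene's start, were matched for 25 of the 33 genes and for 15 of the 18 sterol synthesis genes. No window was matched for FDPS, FDFT1, SQLE, STARD4, ABCG1, SCD1, SCD2 and FADS1. The search covered 4 motifs on both strands, among them CCAAT, the box bound by NF-Y, a partner of SREBPs, the core TCACNCCAC of a sterol regulatory element, and the E-box CACGTG. The NF-Y box was present in 14 of the 15 sterol synthesis windows (93.3%), in 2 of 5 fatty acid synthesis windows (40.0%) and in 41.1% of windows of all 27025 genes. The sterol regulatory element core matched in HMGCS1 alone, 137 to 129 bases upstream of its start, and in 1.44% of all genes. The E-box was found in 6 of the 25 windows (24.0%) and in 8.09% of all genes. A liver X receptor element, 2 copies of AGGTCA spaced by any 4 bases, the last of the 4, was in none of the 25 windows, which do not include that of ABCG1, and in 4 genes of the 27025. The following stretches, 90 bases each, lie upstream of the annotated gene in HMGCS1 (chr13:119690173-119690262, plus strand), LSS (chr10:76531498-76531587, plus strand), NSDHL (chrX:72918431-72918520, plus strand) and HSD17B7 (chr1:169969242-169969331, minus strand). They are shown because the first 3 genes were called lower and the fourth higher, and all 4 carry the NF-Y box, here on the opposite strand. They are written 5′ to 3′ along the gene, and capitals mark the NF-Y box and the sterol regulatory element core.
HMGCS1: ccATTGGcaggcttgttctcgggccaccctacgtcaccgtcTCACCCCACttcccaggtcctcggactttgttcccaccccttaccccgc
LSS: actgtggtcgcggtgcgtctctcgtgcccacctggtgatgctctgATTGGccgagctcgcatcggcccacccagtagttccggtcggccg
NSDHL: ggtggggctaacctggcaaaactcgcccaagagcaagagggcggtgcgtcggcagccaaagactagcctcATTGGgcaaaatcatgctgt
HSD17B7: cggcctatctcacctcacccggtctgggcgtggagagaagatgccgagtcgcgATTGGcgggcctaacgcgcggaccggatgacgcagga
A match describes the letters in these windows and not a bound site.

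Among the genes of sterol sensing and transport, STARD4 fell and SREBF1 rose with sh-B7-H3 (2), while INSIG1, SREBF2 and SCAP passed no test against sh-NC. STARD4, a carrier of cholesterol between membranes, was at 27.0, 27.5 and 29.9 scaled FPKM in sorted sh-NC cells, at 18.7, 22.5 and 20.4 with sh-B7-H3 (1) and at 16.3, 16.9 and 16.7 with sh-B7-H3 (2). The 3 groups stood in that order without overlap. Its log2 fold change was -0.72 ± 0.11 (SE), adjusted p = 0.00320, for sh-B7-H3 (2) and -0.44 ± 0.13 (SE), adjusted p = 0.0593, for sh-B7-H3 (1).

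SREBF1 was at 16.0, 11.04 and 11.4 in sorted sh-NC cells, 13.3, 14.995 and 19.2 with sh-B7-H3 (1) and 19.1, 19.5 and 21.7 with sh-B7-H3 (2). Only the second shRNA separated it from the controls (0.63 ± 0.16 (SE), adjusted p = 0.0304), and the value for the first was 0.29 ± 0.19 (SE), adjusted p = 0.416. The call for sh-B7-H3 (2) was lost without any 1 library of that group, and without sorted sh-NC replicate 2 or 3. SREBF1 transcripts for SREBP1a and SREBP1c, which start at different promoters, are counted as 1 gene. INSIG1, itself a target of SREBPs, was at 74.6, 75.8 and 89.3 in the controls, 74.6, 72.4 and 73.9 with the first shRNA and 74.6, 64.3 and 68.1 with the second, a difference of -0.16 ± 0.10 (SE), adjusted p = 0.301, with both. SREBF2 was at 41.5, 30.6 and 28.3, 24.0, 25.6 and 31.1 and 29.9, 33.1 and 33.6 in the same order of groups, and SCAP at 15.2, 10.1 and 10.1, 9.27, 9.90 and 11.6 and 11.8, 12.1 and 13.2. In both genes sorted sh-NC replicate 1 was the highest of the 9 sorted libraries and the groups overlapped.

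ABCG1, which moves cholesterol out to high-density lipoprotein, rose in every comparison of an shRNA with control and was the only one of the 33 genes called higher with both shRNAs combined. It was at 1.14, 1.17 and 1.15 scaled FPKM in the sorted sh-NC libraries, 3.30, 2.28 and 2.502 with sh-B7-H3 (1) and 7.43, 5.16 and 5.18 with sh-B7-H3 (2). The 3 groups did not overlap, and the means with sh-B7-H3 (1) and (2) were 2.33 and 5.13 times the sh-NC mean. The log2 fold changes were 0.77 ± 0.13 (SE), adjusted p = 0.00640, and 1.67 ± 0.15 (SE), adjusted p = 0.000261. ABCG1 kept its call and direction under every alternative run for each sorted comparison with sh-NC, apart from the requirement of a log2 fold change above 1, which it missed for sh-B7-H3 (1). ABCA1, the pump that loads cholesterol onto lipid-poor apolipoprotein, was at 9.59, 6.25 and 5.68 in sh-NC cells, 5.27, 8.09 and 7.55 with sh-B7-H3 (1) and 9.46, 9.01 and 8.97 with sh-B7-H3 (2). It passed neither test (-0.02 ± 0.22 (SE), adjusted p = 0.967, and 0.34 ± 0.18 (SE), adjusted p = 0.254). Sorted sh-NC replicate 1 held its highest sorted value, and without that library ABCA1 was called higher with sh-B7-H3 (2).

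ABCG1 is also strongly expressed by macrophages, so the levels of their markers stand beside it. The sum of 10 macrophage markers was 64.1 to 69.4 scaled FPKM in sorted sh-NC cells, 146 to 167 with sh-B7-H3 (1), and 132, 133 and 888 in the libraries of sh-B7-H3 (2). In the sorted libraries other than sh-B7-H3 (2) replicate 1, 5 to 7 of the 10 markers reached 1 scaled FPKM, no marker but MS4A7 in sh-NC replicate 2 was at 0, and CD68 and CD14 held most of the sum. The 10 markers did not move alike. In sh-B7-H3 (2) replicates 2 and 3, the complement genes C1QA and C1QB and the lysozyme gene LYZ2 were below every sorted sh-NC library, C1QC was within their range, and ADGRE1, MRC1 and MS4A7 were under 1 scaled FPKM in all of these libraries. C1QA was at 2.73, 1.38 and 1.81 in sh-NC cells, 2.85, 2.39 and 2.69 with sh-B7-H3 (1) and 108, 0.873 and 0.863 with sh-B7-H3 (2). CSF1R, the receptor for the macrophage growth factor CSF1, was at 1.297, 0.818 and 0.567 in sh-NC cells, 4.76, 4.88 and 5.21 with sh-B7-H3 (1) and 23.3, 7.75 and 7.32 with sh-B7-H3 (2). CSF1R, CD68 and CD14 were each higher in all 6 shRNA libraries than in any sorted sh-NC library. The part of macrophage RNA in the ABCG1 values was not tested. Without replicate 1 of sh-B7-H3 (2), the log2 fold change of ABCG1 was 1.52 for that shRNA and 1.07 for both together, still called.

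**Figure D2:**
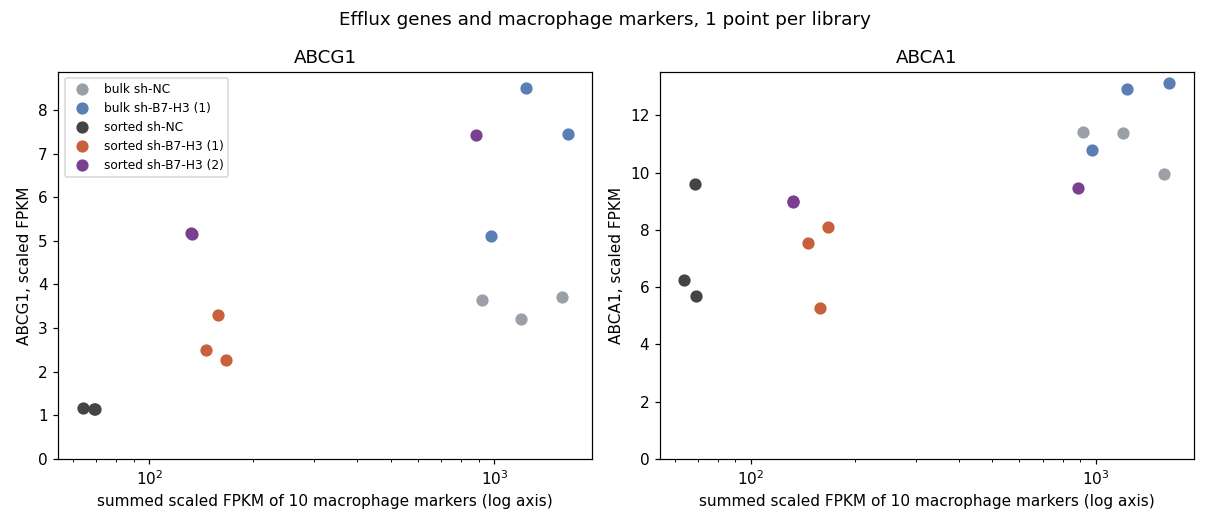
Scaled FPKM of ABCG1 (left) and ABCA1 (right) on the vertical axes against the summed scaled FPKM of 10 macrophage markers on a log axis, with 1 point per library coloured by group. Sorted sh-B7-H3 (2) replicates 2 and 3, which nearly coincide, hold ABCG1 at 5.16 and 5.18 with marker sums of 133 and 132. Bulk sh-NC tumors hold ABCG1 at 3.20 to 3.70 with sums of 920 to 1574. The sums are made up differently, mostly of CD68 and CD14 in those sorted libraries and of LYZ2 and the C1Q genes in bulk. The part of macrophage RNA in ABCG1 was not tested.

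Fatty acid genes divided by step. The 5 genes that desaturate or lengthen fatty acids (SCD1, SCD2, FADS1, FADS2 and ELOVL6) all had negative differences in sorted cells, with 4 called lower with both shRNAs together, where 7.92% of all genes were, and a median of -0.72. The 3 genes that make the acyl chain from citrate (ACLY, ACACA and FASN) all had positive differences, none called, with a median of 0.25. This split was made with the values known and carries no test.

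SCD1, a stearoyl-CoA desaturase, which makes monounsaturated fatty acids, was at 257, 210.0 and 169.5 scaled FPKM in sorted sh-NC cells, 93.6, 132 and 124 with sh-B7-H3 (1) and 121, 152 and 145 with sh-B7-H3 (2). Every shRNA library lay below every control. It was called lower for sh-B7-H3 (1) (-0.85 ± 0.21 (SE), adjusted p = 0.0303) and stood at -0.59 ± 0.19 (SE), adjusted p = 0.0693, for sh-B7-H3 (2). SCD2, its close paralog, with which reads could be shared, was at 279, 190.2 and 164, 140.5, 196 and 211 and 167, 205 and 204 in the same order of groups, which overlapped (-0.15 ± 0.19 (SE), adjusted p = 0.633, with both shRNAs).

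FADS1 and FADS2, neighbours on chromosome 19 that place the double bonds of polyunsaturated fatty acids, fell together. FADS2 was at 165, 111 and 84.3 in the controls, 43.2, 69.0 and 76.4 with the first shRNA and 38.0, 60.4 and 55.5 with the second. All shRNA libraries were below the controls, and the controls themselves ranged from 84.3 to 165. The log2 fold change was -1.19 ± 0.27 (SE), adjusted p = 0.0201, for sh-B7-H3 (2) and -0.91 ± 0.29 (SE), adjusted p = 0.0860, for sh-B7-H3 (1). FADS1 was at 100.03, 74.5 and 73.3 in sh-NC cells, 38.8, 51.6 and 58.9 with sh-B7-H3 (1) and 35.9, 46.0 and 48.1 with sh-B7-H3 (2). It was called lower with each shRNA (-0.73 ± 0.20 (SE), adjusted p = 0.0485, and -0.91 ± 0.18 (SE), adjusted p = 0.00974). Apart from the fold change threshold, the FADS1 call was kept in 3 alternatives and lost in 9 for sh-B7-H3 (1). For sh-B7-H3 (2) it was kept in 10 and lost in 2. ELOVL6, which extends palmitate to stearate, was at 10.003, 9.09 and 9.22 in the controls, 6.76, 6.96 and 6.78 with sh-B7-H3 (1) and 6.10, 7.35 and 6.92 with sh-B7-H3 (2), with no overlap. It was called lower for sh-B7-H3 (2) (-0.42 ± 0.12 (SE), adjusted p = 0.0487) and had nearly the same difference for sh-B7-H3 (1) (-0.41 ± 0.12 (SE), adjusted p = 0.0520). The ELOVL6 call for sh-B7-H3 (2) was kept in 4 of these alternatives and lost in 8.

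FASN, fatty acid synthase, was at 28.4, 11.46 and 12.03 scaled FPKM in sorted sh-NC cells, 12.9, 18.9 and 20.7 with sh-B7-H3 (1) and 23.7, 32.2 and 33.3 with sh-B7-H3 (2). The first control library stood well above the other 2 and made the controls overlap both shRNA groups. The differences were 0.11 ± 0.34 (SE), adjusted p = 0.892, and 0.85 ± 0.33 (SE), adjusted p = 0.117. ACACA, which makes malonyl-CoA, ranged from 8.57 to 15.5 in the sorted libraries and ACLY, which splits citrate to acetyl-CoA, from 37.2 to 53.1, with differences of 0.25 ± 0.20 (SE), adjusted p = 0.443, and 0.17 ± 0.13 (SE), adjusted p = 0.394, with both shRNAs. Sorted sh-NC replicate 1 held the highest value of its group in 12 of the 15 genes of sensing, transport, efflux and fatty acid synthesis. Replicate 1 held the lowest value in 13 of these 15 with sh-B7-H3 (1) and in 12 with sh-B7-H3 (2). Over 10041 genes, too, replicate 1 of sh-NC deviated from its group mean oppositely to replicate 1 of sh-B7-H3 (1) (r = -0.662) and (2) (r = -0.376). Without sorted sh-NC replicate 1, FASN, ACACA and ABCA1 were called higher with sh-B7-H3 (2), among 15 of the 33 genes called, while the calls over all genes went from 2150 to 3614.

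**Figure D3:**
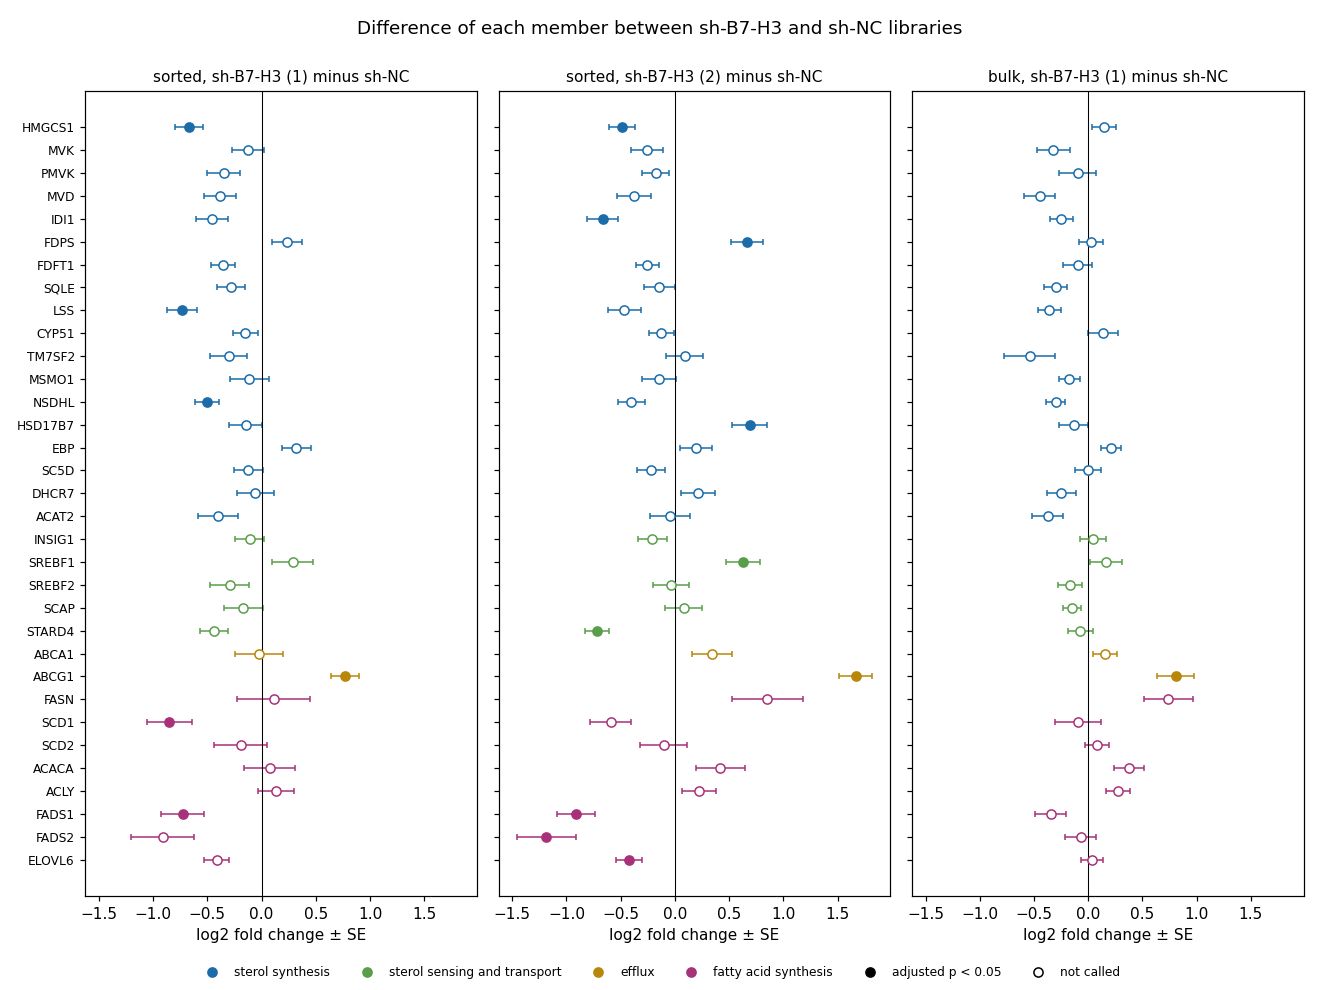
Log2 fold change ± SE (horizontal axes) of the 33 genes, coloured by role, for sh-B7-H3 (1) in sorted cells, sh-B7-H3 (2) in sorted cells and sh-B7-H3 (1) in bulk tumors, each minus sh-NC of the same material. Filled points were called at adjusted p under 0.05: 6, 10 and 1 of 33.

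For each shRNA on its own, 6 of the 33 genes were called with sh-B7-H3 (1), where 13.4% of all genes tested were called (9.03% higher and 4.38% lower), and 10 with sh-B7-H3 (2), where 19.1% were called (11.7% higher and 7.44% lower). The 6 were HMGCS1, LSS, NSDHL, SCD1 and FADS1, lower, and ABCG1, higher. The 10 were HMGCS1, IDI1, STARD4, FADS1, FADS2 and ELOVL6, lower, and FDPS, HSD17B7, SREBF1 and ABCG1, higher. These comparisons share the sorted sh-NC libraries. The counts depended on which libraries were used, over all genes too. There, leaving out 1 library gave 722 to 1948 calls in place of 1497 for sh-B7-H3 (1). For sh-B7-H3 (2) it gave 962 to 3614 in place of 2150. Of the 33 genes, 1, 2 and 2 were called without sh-B7-H3 (1) replicate 1, 2 or 3. Without sorted sh-NC replicate 2, 3 were called for each shRNA. For sh-B7-H3 (1) and (2) in turn, 8 and 15 were called without sorted sh-NC replicate 1, and 6 and 8 without replicate 3. Leaving out sh-B7-H3 (2) replicate 1, 2 or 3 left 3, 4 and 3. With both shRNAs together the count was 9 to 13 of 33 whichever library was left out, and 11 without sh-B7-H3 (2) replicate 1.

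The shRNAs were compared with each other in sorted cells, where 2 of the 33 genes were called, against 3.4% of all 11239 genes tested (1.76% higher and 1.64% lower). ABCG1 was lower with sh-B7-H3 (1) than with sh-B7-H3 (2), with a log2 difference of -0.90 ± 0.16 (SE), adjusted p = 0.0307, and so was HSD17B7 (-0.84 ± 0.15 (SE), adjusted p = 0.0282). Libraries of the same replicate number deviated together in these 2 groups, and with the number as a block 10 of the 33 genes were called, against 16.6% of all genes (9.03% higher and 7.55% lower). ABCG1 and HSD17B7 then stood at -0.90 ± 0.07 (SE), adjusted p = 0.00955 and -0.84 ± 0.06 (SE), adjusted p = 0.00888. Lower with sh-B7-H3 (1) in the blocked fit were also FASN (-0.74 ± 0.06 (SE), adjusted p = 0.00955), FDPS (-0.43 ± 0.06 (SE), adjusted p = 0.0196), SREBF1, ACACA, SCD1, TM7SF2 and ACAT2. STARD4 was higher (0.28 ± 0.06 (SE), adjusted p = 0.0466). Both unblocked calls were lost without replicate 2 or replicate 3 of either group.

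In bulk tumors, ABCG1 was the 1 gene of the 33 called with sh-B7-H3 (1), where 21.4% of the 11800 genes tested were called (12.8% higher and 8.52% lower). ABCG1 was at 3.64, 3.20 and 3.70 scaled FPKM in sh-NC tumors and 8.51, 7.45 and 5.12 in sh-B7-H3 (1) tumors, without overlap (0.81 ± 0.17 (SE), adjusted p = 0.0207). The call was lost without sh-NC replicate 1, 2 or 3 or without sh-B7-H3 (1) replicate 1. Macrophage markers summed to 920 to 1574 in sh-NC tumors and 976 to 1631 in sh-B7-H3 (1) tumors, ranges that overlapped, with LYZ2 and the C1Q genes holding most of the sum. CD68 was at 63.6, 71.2 and 79.6 and 118, 97.4 and 124, and CD14 at 35.3, 35.8 and 36.6 and 52.5, 46.5 and 49.7, both higher in every sh-B7-H3 (1) tumor, and what host cells contributed to ABCG1 was not tested. FASN was at 21.7, 23.7 and 17.1 and 30.6, 49.6 and 28.6, higher in each sh-B7-H3 (1) tumor than in each control, and missed the threshold (0.74 ± 0.22 (SE), adjusted p = 0.0556). Adipocyte markers summed to 589 in sh-B7-H3 (1) replicate 2, the library with the highest FASN, against 35.0 to 148 in the other 5 bulk libraries. Without it FASN was called, among 6 of the 33 genes, with MVD, MVK, SQLE and DHCR7 lower, while the calls over all genes went from 2520 to 3793. That fit left 2 libraries of sh-B7-H3 (1), and the part of adipocyte RNA in the FASN values was not tested.

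In bulk tumors the median of the sterol synthesis genes was -0.21 on the log2 scale, with 14 of 18 negative and 0 called, against 0.02 for all genes. LSS was at 7.41, 8.17 and 8.11 in sh-NC tumors and 5.52, 5.61 and 6.78 in sh-B7-H3 (1) tumors (-0.36 ± 0.11 (SE), adjusted p = 0.0541), and NSDHL at 25.6, 24.8 and 27.2 and 21.0, 19.3 and 22.2 (-0.30 ± 0.09 (SE), adjusted p = 0.0552). Neither gene overlapped between the groups. HMGCS1 did not share this direction, at 37.5, 38.7 and 38.6 in sh-NC tumors and 40.3, 38.4 and 49.5 with sh-B7-H3 (1) (0.15 ± 0.11 (SE), adjusted p = 0.363). Of the desaturases, FADS2 was at 80.8, 110.02 and 103 and 81.5, 98.7 and 98.0, SCD1 at 129, 164 and 167 and 114, 196 and 129.7, and both overlapped.

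Whether the sh-B7-H3 (1) effect differed between sorted cells and bulk tumors was tested as an interaction. None of the 33 genes was called by limma, where 0.464% of the 12062 genes tested were (0.249% higher and 0.216% lower), and 6 had an unadjusted p under 0.05, as did 1767 of all genes tested, a share near that of the 33. HMGCS1 had the smallest p, with a difference between the effects, sorted minus bulk, of -0.81 ± 0.16 (SE), adjusted p = 0.0579, and was the 1 gene called when no filter on low values was used or all 15 libraries were fitted with 1 spread. The other 5 were ELOVL6 (-0.44), SCD1 (-0.76), FADS2 (-0.84), STARD4 (-0.36) and LSS (-0.38), with adjusted p from 0.212 to 0.339.

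**Figure D4:**
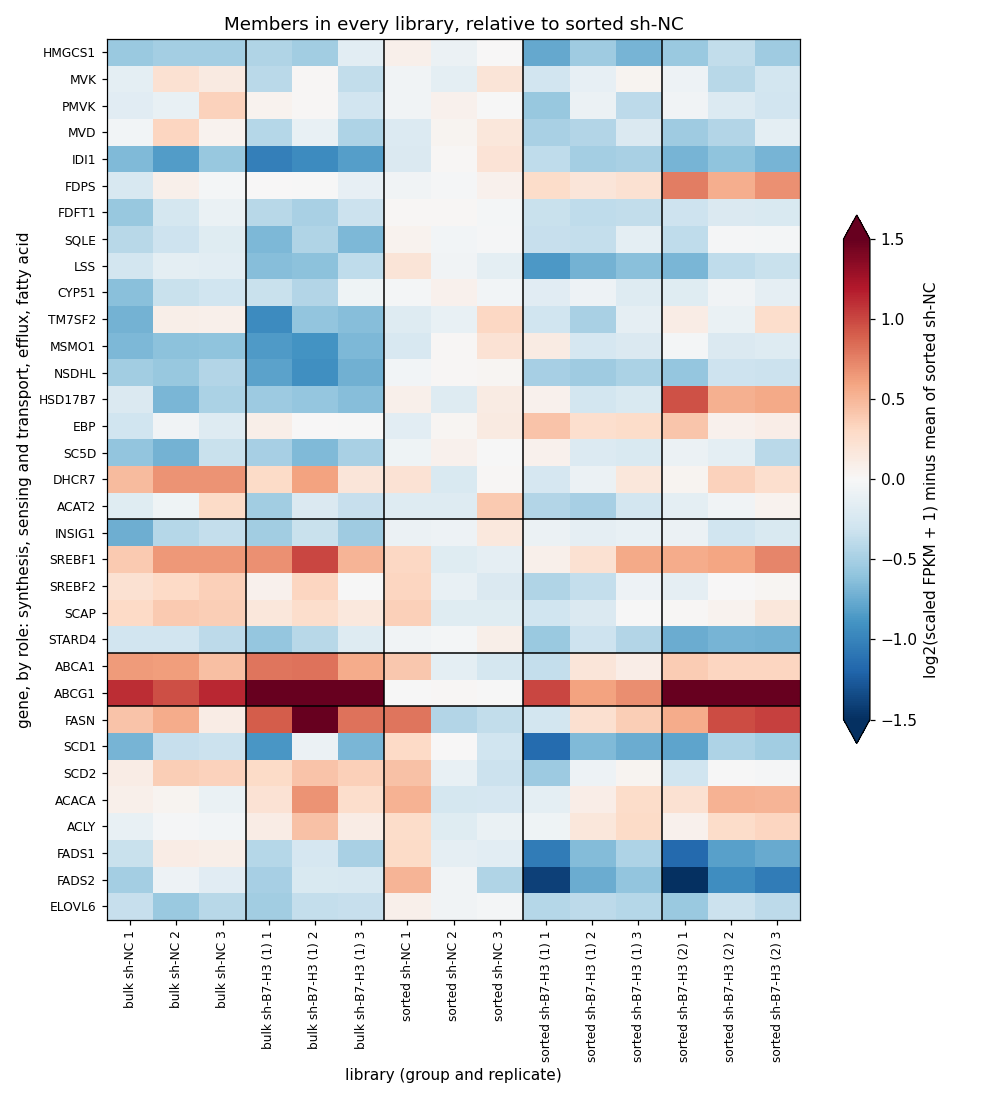
Log2(scaled FPKM + 1) of the 33 genes (rows, by role) in the 15 libraries (columns, by group and replicate) minus the mean of the 3 sorted sh-NC libraries. HMGCS1, IDI1, LSS, NSDHL, SCD1, FADS1 and FADS2 are below 0 in all 6 sorted shRNA libraries, MSMO1, SC5D and IDI1 are below 0 in the 6 bulk libraries, and ABCG1 passes the colour scale's limit of 1.5 in the 3 sorted sh-B7-H3 (2) and the 3 bulk sh-B7-H3 (1) libraries.

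Between the sh-NC groups, bulk tumors differed from sorted cells in 8 of the 33 genes, against 16.9% of the 11418 genes tested (10.4% higher and 6.48% lower). Lower in bulk were HMGCS1, IDI1, MSMO1, NSDHL, SC5D and ELOVL6, and higher were ABCG1 and DHCR7. MSMO1, a sterol methyl oxidase, was at 84.0, 88.1 and 88.3 scaled FPKM in bulk and 114, 137 and 158 in sorted sh-NC libraries, without overlap (-0.63 ± 0.15 (SE), adjusted p = 0.02996). SC5D, a late sterol desaturase, was at 25.0, 23.1 and 30.2 and 36.5, 40.2 and 38.2 (-0.54 ± 0.14 (SE), adjusted p = 0.0327). The bulk minus sorted difference was -0.69 ± 0.15 (SE), adjusted p = 0.0215, for IDI1 and -0.53 ± 0.12 (SE), adjusted p = 0.0213, for HMGCS1. DHCR7, which makes cholesterol in the last step of a branch of the pathway, went the other way, at 6.63, 7.79 and 7.77 in bulk and 5.36, 3.68 and 4.58 in sorted cells (0.61 ± 0.15 (SE), adjusted p = 0.0311). ABCG1 was higher in bulk by 1.06 ± 0.11 (SE), adjusted p = 0.000411. Host cell markers moved with the material, with macrophage markers at 920 to 1574 in bulk and 64.1 to 69.4 in sorted sh-NC libraries, and their part in these differences was not tested. Dissociation of the tumor and depletion of host cells went together and cannot be told apart. ABCG1 was the 1 gene called with FPKM as deposited, without any 1 of the bulk libraries, or without sorted sh-NC replicate 2. Without sorted sh-NC replicate 1 or 3, 17 and 4 genes were called, and over all genes leaving out replicate 1 took the calls from 1924 to 4436.

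Further genes of lipid handling were listed with earlier results of these data known. Of 21 other sterol genes, 2 were called higher and 5 lower with both shRNAs, of 23 tested fatty acid genes 4 higher and 3 lower, and of 8 tested genes of liver X receptor signalling and efflux 2 higher and 1 lower, against 12.6% and 7.92% of all genes. SOAT1, which esterifies cholesterol for storage, was at 30.3, 27.3 and 28.9 scaled FPKM in sorted sh-NC cells, 11.01, 15.8 and 15.4 with sh-B7-H3 (1) and 9.89, 11.8 and 11.8 with sh-B7-H3 (2). It fell in sorted cells (-1.15 ± 0.14 (SE), adjusted p = 0.000260) and in bulk tumors (-0.95 ± 0.12 (SE), adjusted p = 0.00454). INSIG2, the less sterol-responsive relative of INSIG1, was at 31.9, 42.4 and 50.3 in sorted controls, 32.4, 24.9 and 26.3 with the first shRNA, overlapping them, and 23.1, 23.4 and 24.5 with the second. Its difference was -0.65 ± 0.15 (SE), adjusted p = 0.0111, with both in sorted cells and -0.85 ± 0.10 (SE), adjusted p = 0.00345, in bulk. VLDLR, a receptor for triglyceride-rich lipoproteins, fell in sorted cells (-0.72 ± 0.17 (SE), adjusted p = 0.0114) and was -0.14 ± 0.18 (SE), adjusted p = 0.588, in bulk.

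DGAT2, which makes triglyceride from diacylglycerol, had the largest log2 fold change of the genes tested in these 3 lists with both shRNAs, at 1.35, 1.69 and 1.26 in sorted sh-NC cells, 8.20, 7.73 and 8.64 with sh-B7-H3 (1) and 9.67, 6.08 and 6.71 with sh-B7-H3 (2). It rose in sorted cells (1.85 ± 0.14 (SE), adjusted p = 6.35e-06) and in bulk tumors (1.83 ± 0.23 (SE), adjusted p = 0.00463), with no overlap in either. ELOVL7, an elongase of saturated very long chains, was at 6.30, 5.35 and 7.13 in the controls and 12.2 to 19.0 over the 6 shRNA libraries (1.18 ± 0.15 (SE), adjusted p = 0.000235), opposite in direction to ELOVL6. ACSS2, which makes acetyl-CoA from acetate, fell in sorted cells (-0.82 ± 0.14 (SE), adjusted p = 0.00238) and stood at -0.43 ± 0.13 (SE), adjusted p = 0.0542, in bulk.

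PLTP, a phospholipid transfer protein, was at 208, 171 and 182 scaled FPKM in sorted sh-NC cells, 96.5, 91.3 and 119 with sh-B7-H3 (1) and 80.1, 61.3 and 67.4 with sh-B7-H3 (2), and fell (-1.14 ± 0.19 (SE), adjusted p = 0.00179). MYLIP, a ubiquitin ligase for lipoprotein receptors, rose in sorted cells (0.66 ± 0.12 (SE), adjusted p = 0.00255) and in bulk tumors (1.02 ± 0.12 (SE), adjusted p = 0.00372). NCEH1, which frees cholesterol from its esters, rose in sorted cells (0.56 ± 0.13 (SE), adjusted p = 0.0109) and was 0.24 ± 0.12 (SE), adjusted p = 0.167, in bulk. PLTP, MYLIP, ABCA1, ABCG1 and SREBF1 are all described as liver X receptor targets, and in sorted cells with both shRNAs MYLIP and ABCG1 were called higher, PLTP lower, and ABCA1 and SREBF1 were not called.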

How the data were processed

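The authors sequenced mRNA from 15 libraries as single-end reads and deposited a table of FPKM per gene, made against mm10 (UCSC's name for GRCm38) per the submitters' processing notes. The aligner, annotation and strand setting are not given in the sources used here, and the labels and the study name different stranded kits. A smaller deposited table held log2(FPKM + 1) of 999 matched genes and was not used. Of 24917 entries, 26 whose symbols had become dates were dropped. Because MIR6236 took 6.01 to 79.7% of all FPKM in a library, each library was divided by its median ratio over the 9872 genes at 1 FPKM or more in all libraries (factors 0.65 to 1.18). Read totals are unknown, so no counting intervals are given. No column belonged to samples outside this set.

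Groups came from the labels. Genes at 1 scaled FPKM or more in at least 3 libraries of a comparison were tested as log2(scaled FPKM + 1), a scale that understates the change of low genes, with limma 3.58.1 (trend, R 4.3.3), two-sided, on the libraries compared only, with Benjamini-Hochberg adjustment over all genes tested. Python 3.11.15, numpy 2.4.6, pandas 2.3.3 and scipy 1.17.1 did the rest. The steps were tested on simulated data. The members and gene lists were chosen with earlier results of these data known. Library values were to be given for called members among the 8 sterol synthesis and 6 fatty acid genes with the largest absolute log2 fold change over both shRNAs in sorted cells, for the sensing, transport and efflux genes, and for the 3 called genes with the largest change in each other list. Library values of further members were added after they were seen. Same-numbered sorted sh-B7-H3 (1) and (2) libraries deviated from their group means together (r = 0.514, 0.431 and 0.443 across 10041 genes, which are not independent replicates), each best with its own number, so the replicate block is given beside that comparison. Alternatives were another pseudocount (0.1), no filter, FPKM as deposited, quantile normalization, the replicate block, 1 fit of all libraries, an absolute log2 fold change above 1, and each library left out.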

Additional observations from a re-analysis of the deposited data

Results flagged for a closer look

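HSD17B7 and ABCG1 stood out because the effects of the shRNAs on them differed in a direct test between sorted libraries of sh-B7-H3 (1) and (2), 3 against 3. For HSD17B7 the log2 difference, (1) minus (2), was -0.84 (limma, adjusted p = 0.0282), and every library labelled sh-B7-H3 (2) lay above every library of sh-B7-H3 (1). For ABCG1 it was -0.90 (limma, adjusted p = 0.0307), again without overlap. CD276 RNA also differed between these groups (log2 difference -1.16 ± 0.20 (SE), adjusted p = 0.0277), 1 library of sh-B7-H3 (2) carried leukocyte RNA, and fibroblast markers summed to 120.5 to 155 in all 3 libraries of sh-B7-H3 (2) against 55.8 to 84.6 with sh-B7-H3 (1). The part of these in the differences was not tested. Without the library with leukocyte RNA the ABCG1 difference was -0.75, still called, while the calls over all genes went from 382 to 890. Both calls were lost without replicate 2 or replicate 3 of either group, and when no filter on low values was used. A screen of the 33 genes for single libraries far from the other 5 of the sorted shRNA libraries, which chance would set off in about 5% of genes, found 0.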

How the results depend on the processing

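Of the 38 values called for the 33 genes, all 489 recomputed under an alternative kept their direction, with 340 past the threshold and 149 not, and the cause was not tested. The 38 were picked as called and recomputed from the same libraries, which several comparisons share. Agreement in direction was therefore likely beforehand and is no separate support. With FPKM as deposited the number of the 33 genes called was 1 for sh-B7-H3 (1), 6 for sh-B7-H3 (2), 4 for both together, 0 in bulk and 1 for bulk against sorted sh-NC, in place of 6, 10, 11, 1 and 8. One spread for all libraries gave 11 for sh-B7-H3 (1), 3 in bulk, 15 for bulk against sorted and 1 for the interaction. Quantile normalization gave 3 in bulk. No filter gave 0 between the shRNAs and 1 for the interaction. An absolute log2 fold change above 1 left 0, 2, 2, 0, 0 and 1 in the order sh-B7-H3 (1), (2), both, (1) against (2), bulk, and bulk against sorted. Calls over all genes moved as well. In that order, the main fits called 1497, 2150, 2344, 382, 2520 and 1924 genes, and 56 for the interaction. The alternatives that kept every library gave 716 to 2146, 911 to 3155, 748 to 2879, 119 to 1864, 606 to 2507 and 545 to 3082. For the interaction they gave 24 to 128. Leaving out 1 library gave 1 to 8 for sh-B7-H3 (1), 3 to 15 for sh-B7-H3 (2), 9 to 13 for both, 0 to 3 between the shRNAs, 0 to 6 in bulk, 1 to 17 for bulk against sorted and 0 for the interaction. Over all genes it gave 722 to 1948, 962 to 3614, 1414 to 2584, 35 to 890, 546 to 3793, 139 to 4436 and 12 to 72 in the same order. A group left with 2 libraries was assumed to vary like the other.

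Same replicate numbers did not pair shRNA with sh-NC libraries (r from -0.662 to 0.073 for sorted sh-B7-H3 (1), -0.376 to -0.063 for sh-B7-H3 (2) and -0.165 to 0.244 in bulk) nor bulk with sorted sh-NC (-0.137 to 0.361). With the replicate block the counts were 1 for sh-B7-H3 (1), 3 for sh-B7-H3 (2) and 3 in bulk, against 10 between the shRNAs, where the numbers paired the libraries. The blocked fit between the shRNAs called 16.6% of all genes, and the shares in the other blocked fits are not given here. Over all genes, directions were as uneven as 1798 higher to 284 lower with FPKM as deposited and 1256 to 1272 with quantile normalization for both shRNAs, against 1439 to 905. The number of reads behind genes near 1 FPKM, ABCG1 in sorted sh-NC cells among them, is unknown.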

Other observations

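Fatty acid genes ordered the sorted libraries of a group alike at 1 end. In sorted sh-NC cells replicate 1 was the highest for 8 of 8 fatty acid synthesis genes, and replicate 1 was the lowest for 8 of 8 with sh-B7-H3 (1) and for 8 of 8 with sh-B7-H3 (2). Deviations of genes at large were correlated between these libraries, which does not give the order of the libraries for each gene. Over 10041 genes, deviations of replicate 1 from its group mean correlated between sh-NC and sh-B7-H3 (1) at r = -0.662. They did so at -0.376 between sh-NC and sh-B7-H3 (2) and at 0.514 between the shRNAs. The share of all genes highest or lowest in replicate 1 was not computed. In bulk sh-B7-H3 (1) tumors replicate 2 was the highest for 7 of 8, and in bulk sh-NC tumors no replicate was the highest or the lowest for more than 5 of 8. The sterol synthesis genes did not order the sorted libraries this way, with sorted sh-NC replicate 1 the highest for 5 and the lowest for 9 of 18, whereas bulk sh-NC replicate 1 was the lowest for 14 of 18.

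Marker sums of other cell types give the host context of the bulk values. Fibroblast markers summed to 90.6 to 171 scaled FPKM in bulk sh-NC and 279 to 653 in bulk sh-B7-H3 (1) tumors, T cell markers to 2.504 to 2.63 and 6.02 to 19.4, and muscle markers to 2.51 to 18.9 and 31.1 to 622, each without overlap. Endothelial markers overlapped, at 26.6 to 46.5 and 27.2 to 39.8. Sebaceous markers lay between 1.94 and 4.67 in all 15 libraries.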
